A study of Brassica rapa with 6 samples.

Results

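The genes described here take sulfate into plant cells and build it into cysteine and glutathione. They are the genes of Chinese cabbage (Brassica rapa) whose annotated transcript has a description that names a sulfate transporter, ATP sulfurylase, adenylyl-sulfate kinase, 5'-adenylylsulfate reductase, sulfite reductase, serine acetyltransferase, cysteine synthase or glutamate--cysteine ligase. The rule uses words only and no measured value, though it was chosen with earlier results of these data known. It gave 60 of 45517 genes. These are 18 sulfate transporters, 4 ATP sulfurylases, 5 adenylyl-sulfate kinases, 4 adenylylsulfate reductases, 7 adenylylsulfate reductase-like proteins, 2 sulfite reductases, 6 serine acetyltransferases, 11 cysteine synthases and 3 glutamate--cysteine ligases. They lie on all 10 chromosomes of the table (A01 to A10), with 15 on A03 and 2 on A07.

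Sulfate enters plant cells through membrane transporters and is then activated by ATP sulfurylase to adenylylsulfate (APS). APS stands at a branch point. APS reductase takes it to sulfite, which sulfite reductase turns to sulfide, and cysteine synthase joins sulfide to O-acetylserine, the product of serine acetyltransferase, to give cysteine. Glutamate--cysteine ligase uses cysteine in the first step of glutathione synthesis. APS kinase instead adds a phosphate to make PAPS, from which sulfotransferases take sulfate, among them the enzymes that finish glucosinolates, the sulfur-rich defence compounds of the cabbage family. Brassica rapa carries several copies of many genes that are single in Arabidopsis, so most steps have more than one member.

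Petiole, the pale stalk and midrib of the leaf, was set against leaf in wild-type plants grown in a greenhouse, with 3 total RNA libraries for each tissue. The labels give no plant age. Nor do they say whether libraries came from separate plants, so p-values measure the spread between these 6 libraries alone, and this spread may be technical. Petiole libraries held 92622142 to 104023132 estimated counts in gene values and leaf libraries 68073160 to 72716761. Over all transcripts they held 120805715 to 132861243 in petiole and 111518411 to 121161682 in leaf, so a smaller share of leaf counts lay in gene values. A gene count of 0 then allows up to 0.0326 CPM (counts scaled to library size, TMM-normalized) in petiole and up to 0.0432 CPM in leaf, counting error only. The tissues carried the marks of their labels. Genes of chlorophyll a-b binding proteins and the Rubisco small chain, which mark green blade, summed to 548 to 598 CPM in petiole and 8660 to 9022 CPM in leaf, and 0 of 28 tested were higher and 27 lower in petiole, with 3 of the 31 listed at 0 in every petiole library and 1 in every leaf library. Xylem markers (laccases, xylem cysteine proteases and the like) summed to 109.6 to 135 CPM in petiole and 37.3 to 42.3 CPM in leaf, and 7 of 7 tested were higher. Counts in these lists stand beside 31.4% higher and 31.0% lower among all tested genes. A phloem list of SUC2, sieve element occlusion and phloem protein 2 descriptions summed to 303 to 315 CPM in petiole and 491 to 510.2 CPM in leaf (5 of 18 higher, 8 lower). Its largest called rise (3.62) and fall (-2.74) were both PHLOEM PROTEIN 2-LIKE genes, so the sum does not give the amount of phloem. A guard cell list of SLAC1, FAMA and EPIDERMAL PATTERNING FACTOR descriptions summed to 9.77 to 13.0 CPM in petiole and 25.3 to 31.0 CPM in leaf (4 of 11 higher, 5 lower). Its largest called rise was an EPIDERMAL PATTERNING FACTOR-like gene and its largest called fall was SLAC1. A list of SHORT-ROOT and SCARECROW descriptions, mostly scarecrow-like proteins, summed to 1569 to 1600.2 CPM in petiole and 1577 to 1775 CPM in leaf (8 of 37 higher, 14 lower). In bulk tissue, fewer cells of a type and less RNA per cell cannot be told apart, and the part that the mix of cells has in the differences below was not tested.

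More of these genes were higher in petiole than lower. Of the 60 genes, 50 passed the filter of a mean of 10 counts over the 6 libraries. By edgeR at an adjusted p below 0.05, 25 of the 50 were higher in petiole, 50% where 31.4% of all 27984 tested genes were, and 13 were lower, 26% where 31.0% of all tested genes were. Together 38 were called, 76.0% beside 62.4% of all tested genes. Among changes of at least 2 on the log2 scale, 10 were higher in petiole (20% of the 50, with 9.16% for all tested genes) and 1 was lower (2.0%, with 8.57% for all). Petiole and leaf libraries did not overlap for 43 of the 50 (86.0%, where 71.2% of all tested genes did not overlap), with petiole above leaf for 25 (35.9% of all tested genes) and below for 18 (35.3% of all). The median log2 fold change, petiole over leaf, was 0.36 for the 50 and 0.01 for all tested genes.

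All these directions depend on a scaling that centres the genes as a whole. On log2(FPKM + 1), from the deposited FPKM, petiole exceeded leaf by 0.48 in the median gene. There limma called 34 of the 50 higher and 4 lower, and of all 27984 tested genes 16497 higher and 4257 lower. Of the 13 called lower on counts, 8 had a positive difference on that scale, and 1 of the 13 stood above the median gene there. The other 5 also had a negative difference there: transporters 2.1 and 3.5 (BraA03g009170.3C), reductase-like 4 (BraA05g022150.3C), S-sulfocysteine synthase and a plastid-type cysteine synthase (BraA04g031460.3C). None of the 25 called higher had a negative difference there, though transporter 1.2, at 0.32, stood below the median gene. Its mean of 0.126 FPKM is small beside the 1 that is added, which shrinks differences of such low genes.

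**Figure D1:**
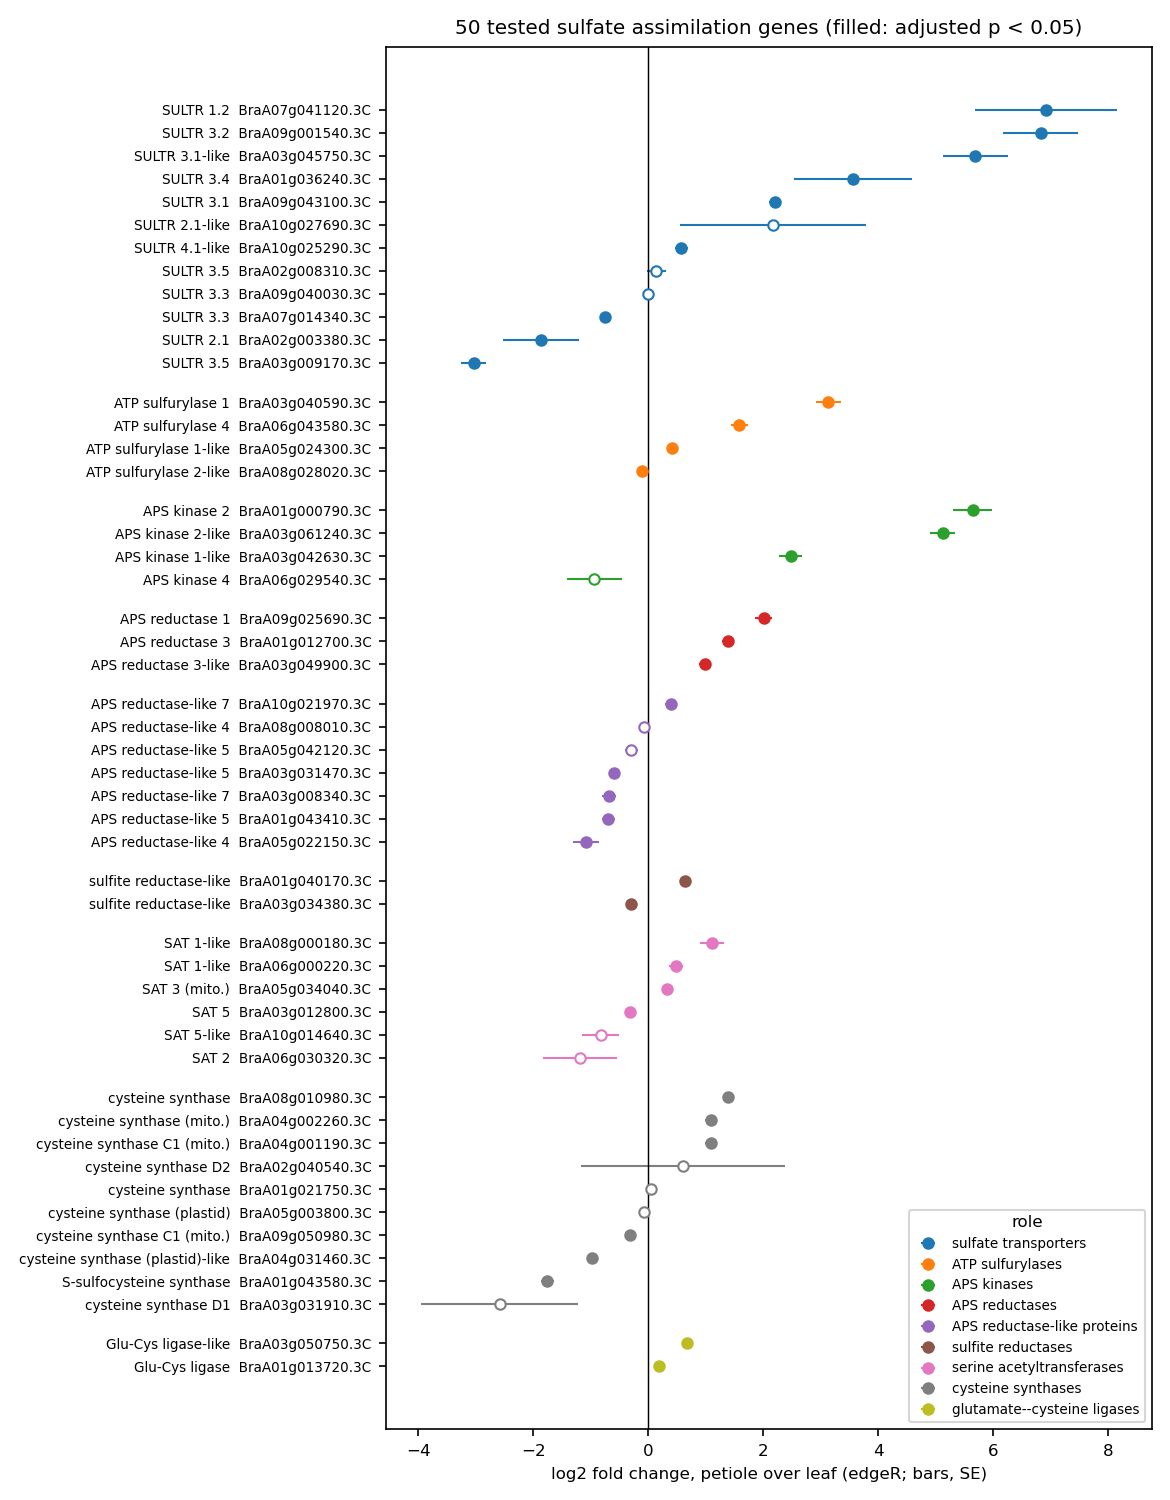
Log2 fold change, petiole over leaf, of the 50 tested genes by role, from edgeR on counts; bars are standard errors, and filled points have an adjusted p below 0.05. The largest rises are sulfate transporters and APS kinases, the APS reductases all lie right of 0, and most APS reductase-like proteins lie left of it, though all but 1 of the 7 lie right of it on log2(FPKM + 1).

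Sulfate transporters, called SULTR in Arabidopsis, had the widest range. Of 18 members 12 were tested, of which 6 were higher and 3 lower in petiole, with a median log2 fold change of 1.37. The transporters with large rises belong mostly to group 3, whose members have been placed in the chloroplast envelope in Arabidopsis. Sulfate transporter 3.2 (BraA09g001540.3C, A09 936919 to 942024) was far higher in petiole, with 51.0, 59.0 and 54.5 CPM in petiole, against 0.706, 0.739 and 0 CPM in leaf. Its log2 fold change was 6.82 ± 0.66 (SE, edgeR adjusted p of 4.4e-05). A sulfate transporter 3.1-like gene (BraA03g045750.3C, A03 23159121 to 23165596) had 60.5, 68.8 and 66.8 CPM in petiole, against 0.490, 0.643 and 2.67 CPM in leaf. The log2 difference is 5.69 ± 0.57 (SE, edgeR adjusted p of 5.48e-05), and 6.84 without leaf 3, the highest of the leaf libraries. Sulfate transporter 3.1 (BraA09g043100.3C) kept a clear level in leaf, with 69.7, 85.1 and 91.3 CPM in petiole, against 17.2, 18.8 and 17.2 CPM in leaf. The difference was 2.21 ± 0.11 (SE, edgeR adjusted p of 8.6e-07) on the log2 scale, which is 4.62-fold.

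Transporters 3.3 and 3.5, also of group 3, were not higher by the edgeR test. Sulfate transporter 3.3 is present in 2 copies, and it held the highest level of any transporter in leaf. The copy BraA07g014340.3C stood at 36.5 ± 2.35 CPM per kb in petiole and 61.4 ± 1.17 CPM per kb in leaf (CPM divided by transcript length, SD, n = 3 each). In CPM it had 74.2, 66.3 and 66.9 CPM in petiole, against 119, 116 and 115 CPM in leaf. It was lower in petiole by edgeR, at -0.75 ± 0.06 (SE, edgeR adjusted p of 1.02e-05), while on log2(FPKM + 1) its difference was 0.0003. The other copy, BraA09g040030.3C, had 58.9, 58.0 and 53.5 CPM in petiole, against 58.2, 57.4 and 56.1 CPM in leaf. The tissues overlapped, and the log2 fold change was -0.01 ± 0.06 (SE, edgeR adjusted p of 0.883). Sulfate transporter 3.5, which in Arabidopsis raises the activity of sulfate transporter 2.1 in the root, also has 2 copies. One, BraA03g009170.3C (A03 3930094 to 3934444), had 1.69, 1.48 and 1.06 CPM in petiole, against 13.1, 10.7 and 11.0 CPM in leaf. At -3.03 ± 0.22 (SE, edgeR adjusted p of 7.55e-06) this was the largest fall among the 50 tested genes. The other copy, BraA02g008310.3C, had 14.4, 10.8 and 10.4 CPM in petiole, against 10.7, 9.38 and 12.2 CPM in leaf, and with overlapping tissues its log2 fold change was 0.14 ± 0.16 (SE, edgeR adjusted p of 0.482).

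Of the 4 genes described as sulfate transporter 3.4, only BraA01g036240.3C passed the filter. It was low, with 3.60, 3.10 and 2.53 CPM in petiole, against 0.0576, 0.0274 and 0.697 CPM in leaf. Its log2 fold change was 3.56 ± 1.02 (SE, edgeR adjusted p of 0.0164), and 6.14 without leaf 3, which held most of the leaf counts. Group 1 transporters are the high-affinity importers that take up sulfate in Arabidopsis roots. They were close to or at 0 here. Sulfate transporter 1.1 (BraA02g014850.3C) and 1.3 (BraA09g040820.3C) were listed at 0 in every library, and a 1.2-like gene (BraA02g024460.3C) held 2 counts in leaf 2 and 0 elsewhere. Sulfate transporter 1.2 (BraA07g041120.3C) was the exception, with 111, 36 and 73 counts in petiole, against 0, 1 and 0 counts in leaf. That is 220 estimated counts against 1, a ratio of 159 after scaling to library size (edgeR adjusted p = 0.00156). A 95% interval for counting error on the pooled counts is 28.3 to 6317. It leaves out the spread between libraries and how the estimation shared reads among transcripts at this place. Without leaf 2, which holds the only leaf count, the fitted log2 fold change is 9.01 in place of 6.92, a value that then rests on the prior count. A second transcript at the same place behaves differently and is described with the isoforms.

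Group 2 transporters, which in Arabidopsis load sulfate in vascular tissue at low affinity, were low in both tissues. Sulfate transporter 2.1 (BraA02g003380.3C) had 0.481, 0.316 and 0.120 CPM in petiole, against 0.965, 0.931 and 1.48 CPM in leaf. It was called lower, at -1.87 ± 0.66 (SE, edgeR adjusted p of 0.0385), but the adjusted p lay between 0.0595 and 0.114 without petiole 2, petiole 3 or any 1 of the leaf libraries. The 2.1-like gene (BraA10g027690.3C) had 0.260, 0.204 and 0.0652 CPM in petiole, against 0.115, 0 and 0 CPM in leaf, and was not called (2.17 ± 1.62 (SE, edgeR adjusted p of 0.277)). Without leaf 1, the only leaf library with counts of it, its log2 fold change is 6.96 with an edgeR adjusted p of 0.0381. Sulfate transporter 4.1-like (BraA10g025290.3C), described as chloroplastic, has an Arabidopsis relative that releases sulfate from the vacuole. It had 17.1, 16.4 and 17.1 CPM in petiole, against 10.1, 11.2 and 12.8 CPM in leaf. Petiole was higher, at 0.57 ± 0.11 (SE, edgeR adjusted p of 0.00269).

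**Figure D2:**
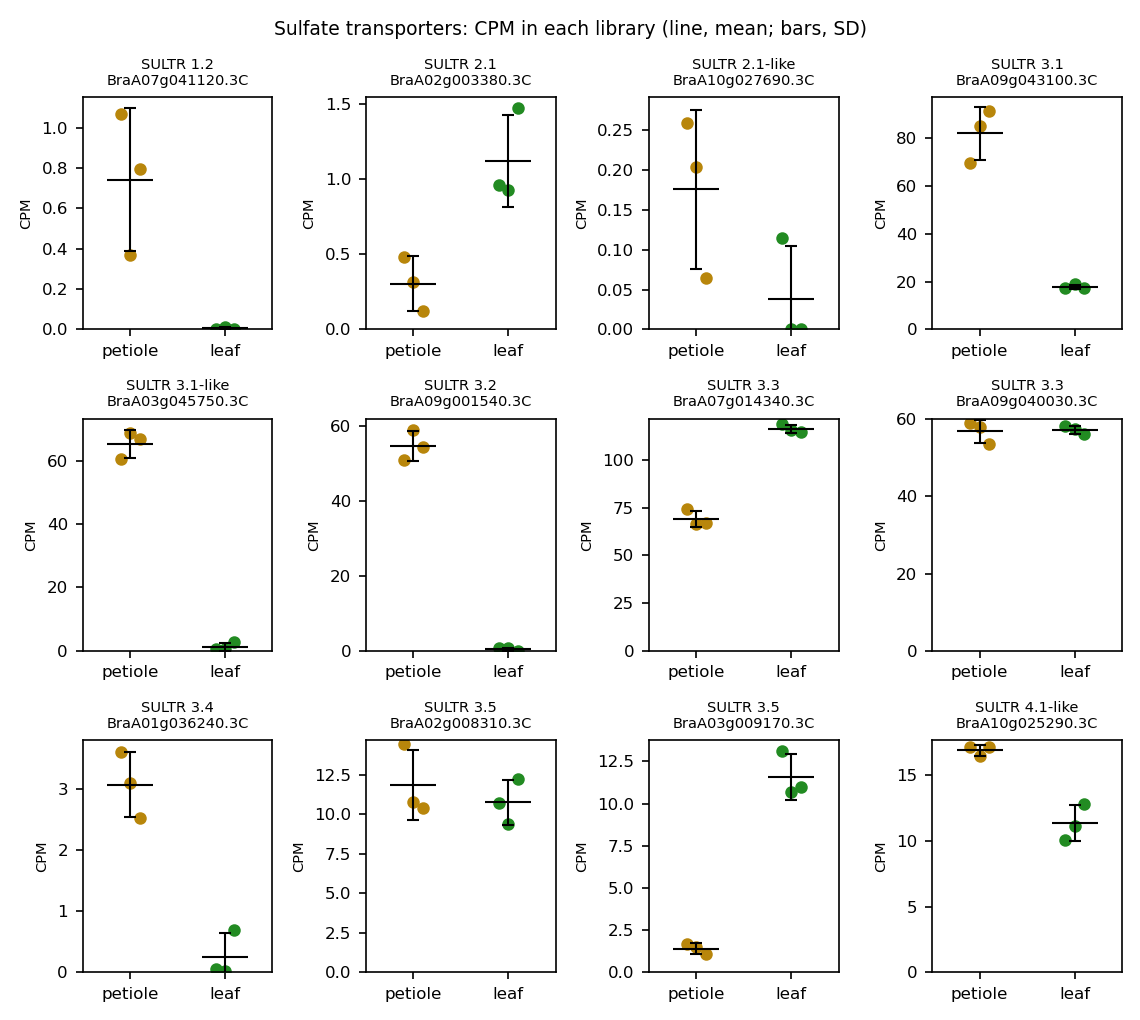
CPM of the 12 tested sulfate transporters in each of the 3 petiole and 3 leaf libraries (points; line, mean; bars, SD), each panel on its own axis from 0. Transporters 3.2 and 3.1-like lie at 51.0 to 68.8 CPM in petiole and at or below 2.67 CPM in leaf, while 1 copy each of 3.3 and 3.5 is higher in leaf and the other copy overlaps.

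At the next step, ATP sulfurylase, 3 of 4 genes were higher and 1 was lower in petiole. ATP sulfurylase 1 (BraA03g040590.3C, A03 20207729 to 20209940) had 19.3, 20.3 and 16.98 CPM in petiole, against 1.86, 1.71 and 2.89 CPM in leaf. The log2 fold change was 3.13 ± 0.22 (SE, edgeR adjusted p of 6.5e-06). ATP sulfurylase 4 (BraA06g043580.3C) had 14.0, 13.0 and 12.0 CPM in petiole, against 3.67, 4.90 and 4.46 CPM in leaf, a difference of 1.58 ± 0.15 (SE, edgeR adjusted p of 4.15e-05). The 1-like gene (BraA05g024300.3C) moved less, with 29.2, 27.7 and 31.5 CPM in petiole, against 22.6, 21.0 and 22.8 CPM in leaf and 0.41 ± 0.08 (SE, edgeR adjusted p of 0.00268). The most abundant copy did not follow them. ATP sulfurylase 2-like (BraA08g028020.3C) stood at 94.1 ± 8.99 CPM per kb in petiole and 110.1 ± 2.54 CPM per kb in leaf (SD, n = 3 each), more than the other ATP sulfurylases together in either tissue. Its CPM were 145, 137 and 139 CPM in petiole, against 147, 155 and 153 CPM in leaf. The log2 fold change was -0.11 ± 0.04 (SE, edgeR adjusted p of 0.0491), a call that is lost without petiole 2, petiole 3, leaf 2 or leaf 3 (adjusted p 0.0899 to 0.139) and whose direction turns on log2(FPKM + 1), to 0.51.

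APS kinases, which make PAPS, had the highest median of any role, a log2 fold change of 3.80. Of 5 members 4 were tested, 3 of them higher and 0 lower. APS kinase 2 (BraA01g000790.3C, A01 395985 to 397540) had 17.8, 20.5 and 18.5 CPM in petiole, against 0.562, 0.178 and 0.398 CPM in leaf. Its log2 fold change was 5.64 ± 0.34 (SE, edgeR adjusted p of 3.02e-06). An APS kinase 2-like gene (BraA03g061240.3C, A03 32809980 to 32811370) was the most abundant kinase in petiole and had 63.6, 78.1 and 75.2 CPM in petiole, against 1.96, 2.75 and 1.51 CPM in leaf. That is 5.12 ± 0.22 (SE, edgeR adjusted p of 4.07e-07). APS kinase 1-like (BraA03g042630.3C) had 23.0, 22.7 and 23.0 CPM in petiole, against 4.15, 5.24 and 2.91 CPM in leaf, a difference of 2.48 ± 0.20 (SE, edgeR adjusted p of 1.64e-05). In each of these 3 genes every petiole library lay above every leaf library. In Arabidopsis, APS kinases 1 and 2 provide most of the PAPS used for glucosinolates. APS kinase 4 (BraA06g029540.3C) was low and its tissues overlapped, with 0.750, 1.44 and 0.554 CPM in petiole, against 1.93, 2.08 and 1.25 CPM in leaf. It was not called (-0.94 ± 0.47 (SE, edgeR adjusted p of 0.119)), although without petiole 2 its log2 fold change is -1.43 with an edgeR adjusted p of 0.0379.

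APS reductases, on the other side of the branch, were also higher. APS reduction is regarded as a main control point of sulfate assimilation in Arabidopsis. Of 4 members 3 were tested, and all 3 were higher in petiole, with no overlap. APS reductase 1 (BraA09g025690.3C, A09 17272980 to 17274619) had 18.3, 24.1 and 25.6 CPM in petiole, against 5.29, 5.49 and 6.13 CPM in leaf. The log2 fold change was 2.01 ± 0.15 (SE, edgeR adjusted p of 1.02e-05). APS reductase 3 (BraA01g012700.3C) had 24.3, 28.4 and 23.8 CPM in petiole, against 9.85, 10.1 and 9.36 CPM in leaf, at 1.38 ± 0.10 (SE, edgeR adjusted p of 9.48e-06). The 3-like gene (BraA03g049900.3C) had 14.2, 14.2 and 12.9 CPM in petiole, against 6.86, 7.01 and 7.05 CPM in leaf, at 0.98 ± 0.11 (SE, edgeR adjusted p of 8.72e-05). The rises of the 3 called APS kinases, from 2.48 to 5.64, and of the 3 APS reductases, from 0.98 to 2.01, do not overlap. The fourth tested kinase, APS kinase 4, stood below both ranges, at -0.94. The annotated transcript of APS kinase 1-like, tested alone as an isoform, was at 0.58 and not called. The difference between the roles was not tested.

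**Figure D3:**
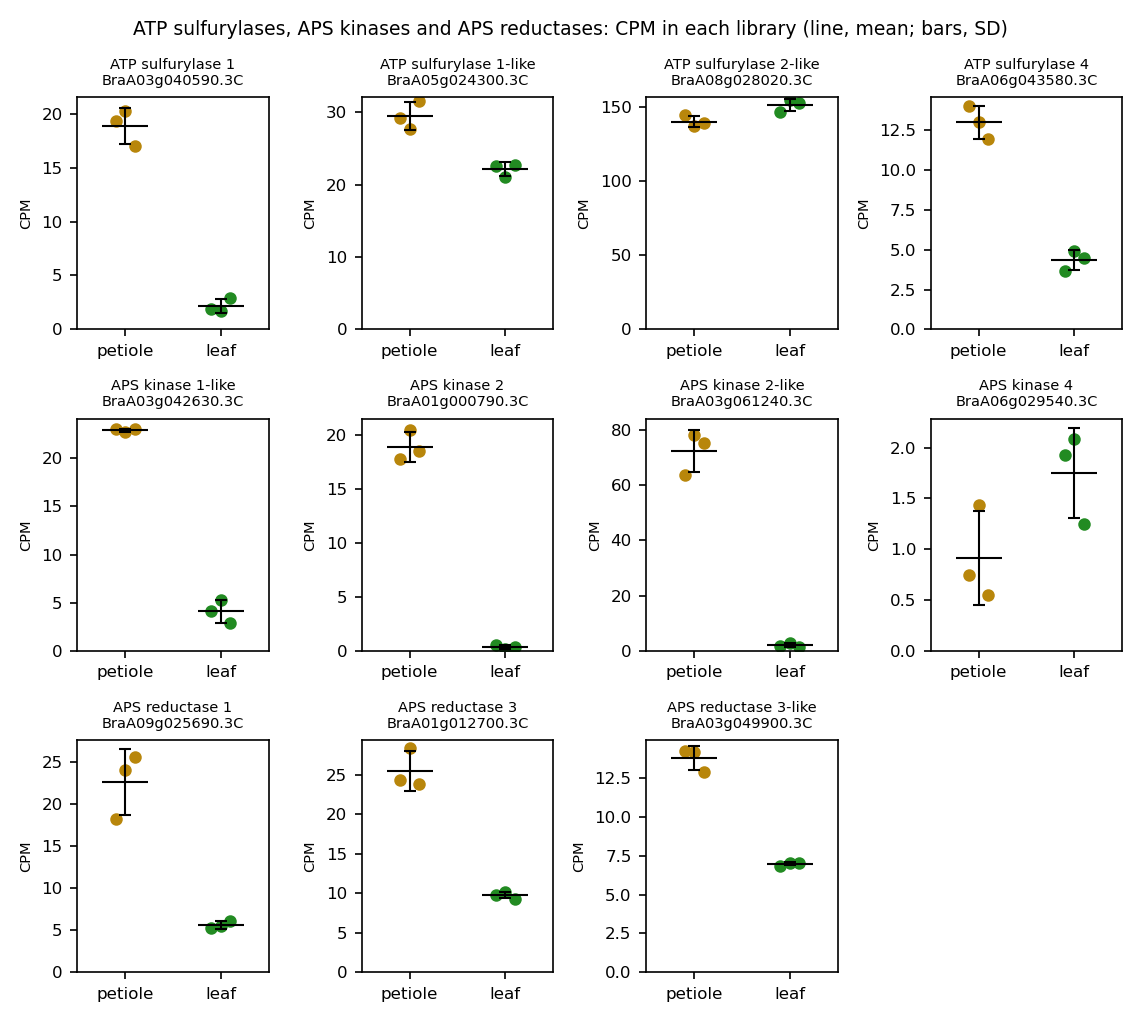
CPM of the 4 ATP sulfurylases, the 4 tested APS kinases and the 3 tested APS reductases in each of 3 petiole and 3 leaf libraries (points; line, mean; bars, SD), each panel on its own axis from 0. Petiole lies above leaf in 9 of the 11 panels; ATP sulfurylase 2-like and APS kinase 4 are the others.

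APS reductase-like proteins share the thioredoxin fold of APS reductase and are not known to reduce APS. They went mainly the other way. Of 7 tested, 4 were lower, 1 was higher and 2 were not called, with a median of -0.59. The fall was largest in reductase-like 4 (BraA05g022150.3C), which had 3.93, 2.49 and 4.24 CPM in petiole, against 7.53, 6.98 and 8.05 CPM in leaf. This is -1.08 ± 0.23 (SE, edgeR adjusted p of 0.00353). A reductase-like 5 gene (BraA01g043410.3C) had 14.9, 12.2 and 13.6 CPM in petiole, against 23.4, 19.5 and 23.0 CPM in leaf, at -0.69 ± 0.12 (SE, edgeR adjusted p of 0.00107). Another reductase-like 5 gene (BraA03g031470.3C, -0.59) and a reductase-like 7 gene (BraA03g008340.3C, -0.68) fell by similar amounts, and the differences of these 3 genes were 0.0383 to 0.14 on log2(FPKM + 1). The other reductase-like 7 gene (BraA10g021970.3C) was higher, with 23.4, 20.5 and 23.9 CPM in petiole, against 15.4, 18.1 and 18.1 CPM in leaf and 0.39 ± 0.11 (SE, edgeR adjusted p of 0.0121). The other reductase-like 4 gene (BraA08g008010.3C) had 16.005, 15.5 and 14.6 CPM in petiole, against 16.9, 15.9 and 15.95 CPM in leaf, with overlapping tissues, and was not called (-0.08 ± 0.09 (SE, edgeR adjusted p of 0.46)). The third reductase-like 5 gene (BraA05g042120.3C) lay on the threshold (-0.29 ± 0.11 (SE, edgeR adjusted p of 0.05)) and was called lower without petiole 3 (adjusted p = 0.0439) or without leaf 1 (adjusted p = 0.0432).

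Sulfite reductase reduces sulfite to sulfide with electrons from ferredoxin in the plastid. Both of its genes carry the same description and differed in direction. BraA01g040170.3C had 107, 100.3 and 107 CPM in petiole, against 70.8, 69.0 and 62.5 CPM in leaf, at 0.63 ± 0.06 (SE, edgeR adjusted p of 4.24e-05). BraA03g034380.3C had 76.3, 79.9 and 78.4 CPM in petiole, against 97.9, 98.5 and 92.7 CPM in leaf, at -0.30 ± 0.05 (SE, edgeR adjusted p of 0.000742) on counts and 0.42 on log2(FPKM + 1). In each, the 3 petiole libraries lay apart from the 3 leaf libraries.

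Serine acetyltransferases supply O-acetylserine in the cytosol, plastid and mitochondrion. Of 6 tested, 3 were higher, 1 was lower and 2 were not called, with a median near 0 (0.0029). The most abundant, serine acetyltransferase 5 (BraA03g012800.3C), stood at 108 ± 5.71 CPM per kb in petiole and 134 ± 2.76 CPM per kb in leaf (SD, n = 3 each). In CPM it had 94.1, 103 and 103 CPM in petiole, against 125, 122 and 127 CPM in leaf, at -0.32 ± 0.05 (SE, edgeR adjusted p of 0.000867) on counts and 0.43 on log2(FPKM + 1). The mitochondrial serine acetyltransferase 3 (BraA05g034040.3C) had 30.3, 31.1 and 32.0 CPM in petiole, against 23.1, 27.4 and 24.3 CPM in leaf, at 0.32 ± 0.09 (SE, edgeR adjusted p of 0.0118). Both plastid 1-like genes were higher. BraA08g000180.3C had 5.67, 6.09 and 6.90 CPM in petiole, against 3.21, 3.20 and 2.23 CPM in leaf, at 1.11 ± 0.21 (SE, edgeR adjusted p of 0.00221), and BraA06g000220.3C had 14.7, 13.1 and 15.2 CPM in petiole, against 9.54, 9.72 and 11.6 CPM in leaf, at 0.48 ± 0.12 (SE, edgeR adjusted p of 0.0088). Serine acetyltransferase 2 (BraA06g030320.3C, -1.18, adjusted p = 0.145) was at or below 1.35 CPM in every library. The 5-like gene (BraA10g014640.3C, -0.83, adjusted p = 0.0555) was called lower without petiole 1 (-1.19, adjusted p = 0.0111).

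Cysteine synthases, which form cysteine from O-acetylserine and sulfide, differed in direction between genes. Of 10 tested, 3 were higher, 3 were lower and 4 were not called. A gene described as cysteine synthase with no organelle named (BraA08g010980.3C, A08 9550995 to 9552875) had 187, 199 and 190.2 CPM in petiole, against 73.6, 74.1 and 73.0 CPM in leaf. Petiole was 2.61-fold higher, at 1.38 ± 0.04 (SE, edgeR adjusted p of 6.7e-08). The other gene of that description (BraA01g021750.3C) had 162, 163 and 166 CPM in petiole, against 154, 166 and 158 CPM in leaf, with overlapping tissues and 0.04 ± 0.04 (SE, edgeR adjusted p of 0.433). Mitochondrial cysteine synthase (BraA04g002260.3C) had 60.3, 52.5 and 56.9 CPM in petiole, against 23.4, 29.7 and 27.0 CPM in leaf, at 1.08 ± 0.10 (SE, edgeR adjusted p of 3.62e-05). The plastid forms were not higher on counts. A chloroplastic/chromoplastic-like gene (BraA04g031460.3C) had 34.4, 32.6 and 30.9 CPM in petiole, against 66.6, 66.7 and 58.7 CPM in leaf, at -0.97 ± 0.08 (SE, edgeR adjusted p of 1.26e-05), and the other (BraA05g003800.3C) had 46.9, 47.7 and 48.9 CPM in petiole, against 50.9, 50.8 and 49.2 CPM in leaf, at -0.07 ± 0.05 (SE, edgeR adjusted p of 0.277) on counts and 0.62 on log2(FPKM + 1). S-sulfocysteine synthase (BraA01g043580.3C), a plastid enzyme that uses thiosulfate in Arabidopsis, had 3.89, 4.14 and 3.65 CPM in petiole, against 13.5, 13.1 and 12.8 CPM in leaf. It was lower, at -1.75 ± 0.12 (SE, edgeR adjusted p of 6.26e-06).

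Bifunctional cyanoalanine synthase/cysteine synthase C1 detoxifies cyanide in the mitochondrion in Arabidopsis. Its tested copies were called in opposite directions on counts. BraA04g001190.3C had 32.8, 35.2 and 39.2 CPM in petiole, against 16.05, 17.3 and 17.3 CPM in leaf, at 1.08 ± 0.09 (SE, edgeR adjusted p of 1.97e-05). BraA09g050980.3C, the most abundant gene of the cysteine synthase group per kb in leaf but second to BraA08g010980.3C in petiole (117 against 128 CPM per kb), had 129.5, 130.3 and 130.1 CPM in petiole, against 169, 161 and 159 CPM in leaf, at -0.33 ± 0.04 (SE, edgeR adjusted p of 0.000174) on counts and 0.42 on log2(FPKM + 1). The D1 gene (BraA03g031910.3C) was at or below 1.60 CPM in every library and not called (-2.59 ± 1.37 (SE, edgeR adjusted p of 0.136)). Without petiole 2, which held most of its petiole counts, its log2 fold change is -5.98 with an edgeR adjusted p of 0.0045. The D2 gene (BraA02g040540.3C) was at or below 0.671 CPM and was not called (adjusted p = 0.787).

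Both tested glutamate--cysteine ligases were higher in petiole. BraA03g050750.3C had 154, 155 and 153 CPM in petiole, against 94.4, 95.7 and 101 CPM in leaf, at 0.67 ± 0.04 (SE, edgeR adjusted p of 3.41e-06). The more abundant BraA01g013720.3C differed less, with 309, 303 and 319 CPM in petiole, against 279.8, 267 and 271 CPM in leaf and 0.19 ± 0.04 (SE, edgeR adjusted p of 0.00264). In both genes the tissues did not overlap.

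Summed over its genes, each step gives a level that can be set beside the others per kb. The sums are values of 3 libraries a tissue and were not tested. APS kinases summed to 112 ± 6.29 CPM per kb in petiole and 8.36 ± 2.26 CPM per kb in leaf (SD, n = 3 each), 13.3 times as much in petiole. APS reductases summed to 41.2 ± 3.61 CPM per kb in petiole and 14.4 ± 0.255 CPM per kb in leaf, 2.86 times as much. Petiole thus held 112 CPM per kb of kinase and 41.2 CPM per kb of reductase transcripts, and leaf 8.36 CPM per kb of kinase and 14.4 CPM per kb of reductase transcripts. Kinase transcripts were the higher of the pair in every petiole library and the lower in every leaf library.

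Sulfate transporters summed to 179.9 ± 3.93 CPM per kb in petiole and 113 ± 3.37 CPM per kb in leaf, 1.59 times as much in petiole, and their makeup differed more than the sum. Transporter 3.3 BraA07g014340.3C made up 20.3 ± 1.75% in petiole and 54.4 ± 1.87% in leaf of the transporter sum. Transporter 3.1 BraA09g043100.3C made up 23.0 ± 2.76% in petiole and 7.94 ± 0.190% in leaf, transporter 3.2 15.6 ± 0.816% in petiole and 0.216 ± 0.187% in leaf, and the 3.1-like gene 15.2 ± 0.688% in petiole and 0.475 ± 0.466% in leaf. The ATP sulfurylase sum was 136 ± 9.66 CPM per kb in petiole and 130.5 ± 2.94 CPM per kb in leaf, a ratio of 1.04, as the 2-like gene made up 69.4 ± 1.63% in petiole and 84.4 ± 0.526% in leaf. Among the kinases, the 2-like gene BraA03g061240.3C made up 64.6 ± 1.73% in petiole and 21.9 ± 4.71% in leaf, and the 1-like gene BraA03g042630.3C made up 17.5 ± 1.06% in petiole and 47.1 ± 1.53% in leaf.

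The remaining sums also differed by less than those of the APS kinases, APS reductases and transporters. Cysteine synthases summed to 452 ± 3.97 CPM per kb in petiole and 395 ± 7.48 CPM per kb in leaf (ratio 1.15). This sum includes the C1, D1, D2 and S-sulfocysteine synthase genes, so it is not a level of cysteine synthesis alone. The C1 gene BraA09g050980.3C made up 25.9 ± 0.159% in petiole and 37.3 ± 0.997% in leaf. The C1 gene BraA04g001190.3C made up 7.13 ± 0.598% in petiole and 3.86 ± 0.200% in leaf. Glutamate--cysteine ligases summed to 267 ± 4.87 CPM per kb in petiole and 218 ± 4.04 CPM per kb in leaf (ratio 1.22), and sulfite reductases to 89.7 ± 1.41 CPM per kb in petiole and 78.8 ± 3.56 CPM per kb in leaf (ratio 1.14). Serine acetyltransferases summed to 159 ± 5.66 CPM per kb in petiole and 175 ± 3.22 CPM per kb in leaf, a ratio of 0.908, and APS reductase-like proteins to 92.0 ± 5.68 CPM per kb in petiole and 121 ± 3.64 CPM per kb in leaf, a ratio of 0.763. On the FPKM scale each ratio is larger, at 22.6 for the kinases and 2.68 for the transporters, and those of serine acetyltransferases and reductase-like proteins pass 1, to 1.53 and 1.29.

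**Figure D4:**
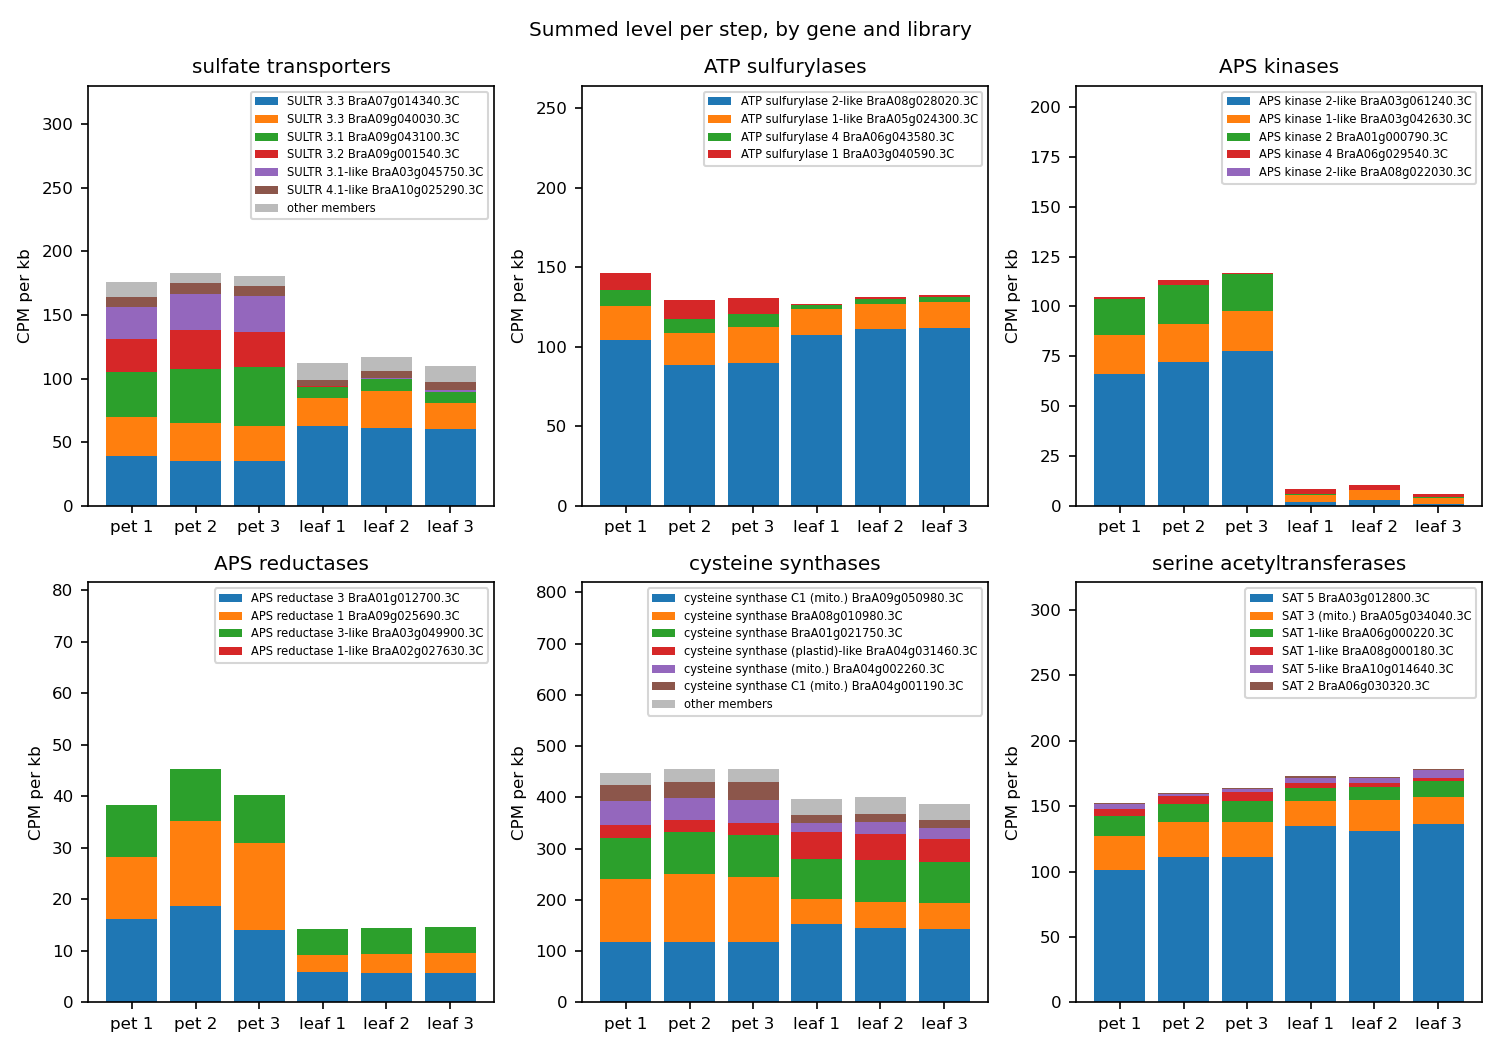
Summed CPM per kb of the genes of 6 steps in each petiole (pet) and leaf library, stacked by gene, each panel on its own axis from 0. The APS kinase sum is 112 CPM per kb in petiole and 8.36 in leaf, and the transporter stack is led by 3.1, 3.3, 3.2 and 3.1-like genes in petiole and by the pair of 3.3 genes in leaf.

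Some genes share a description. Of the 60 genes, 12 descriptions are shared by at least 2. In 3 of these, reductase-like 7, sulfite reductase and the C1 synthase, 1 copy was called higher and another lower in petiole on counts, while on log2(FPKM + 1) both copies of each had a positive difference. Copies were not tested against each other. In another 5, the cysteine synthases, transporters 3.3 and 3.5 and reductase-like proteins 4 and 5, at least 1 copy was called and another tested copy was not, which does not show that the copies differ. How the authors' estimation shared reads among near-identical copies is not stated, so the split between copies is uncertain.

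The gene values sum 89 transcript rows, of which 76 were tested as isoforms. Of these, 26 were called higher by edgeR in petiole (15.4% of all tested isoforms) and 12 lower (14.1% of all), where 29.5% of all tested isoforms were called in either direction. Leaving out 1 library ended some of these calls. In ATP sulfurylase 2-like (BraA08g028020.3C) the annotated transcript had 10693, 3312 and 3110 counts in petiole, against 7699, 7902 and 8057 counts in leaf, and the assembled transcript with a shared junction had 4352, 10135 and 9703 counts in petiole, against 2490, 3408 and 2710 counts in leaf. Petiole 1 was like the leaf libraries in this split and the other petiole libraries were not, and neither isoform was called (adjusted p 0.231 and 0.0841). In transporter 3.3 BraA09g040030.3C, the annotated transcript had 5728, 5308 and 4528 counts in petiole, against 351, 3663 and 35 counts in leaf, and leaf 2 stood apart from the other leaf libraries. The longer transcript of that gene had 404, 380 and 392 counts in petiole, against 3689, 532 and 3912 counts in leaf, and was called lower at -3.21 ± 0.78 (SE, edgeR adjusted p of 0.0314). Leaving out any 1 library other than leaf 2 ended this call, with an edgeR adjusted p of 0.0801 to 0.0983.

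In some genes the annotated transcript holds a small share of the counts. In cysteine synthase BraA08g010980.3C it held 0.685 to 1.09% in petiole and 2.70 to 6.29% in leaf. With the annotated transcripts counted alone, 47 of the 50 genes were tested, and 19 were called higher and 7 lower. Of all 25854 genes tested in that fit, 5065 were called higher and 4888 lower. The log2 fold change of this cysteine synthase turned to -0.79 and that of reductase-like 7 BraA10g021970.3C to -0.39, neither of them called. Among genes called when all rows are summed, 3 were not tested: S-sulfocysteine synthase and reductase-like 4 BraA05g022150.3C, whose annotated transcripts are listed at 0 in every library, and ATP sulfurylase 1, whose annotated transcript had 14, 19 and 22 counts in petiole, against 0, 4 and 0 counts in leaf. Another 7 kept their direction and lost the call. The log2 fold change was then 0.16 in glutamate--cysteine ligase BraA03g050750.3C, 0.52 in APS kinase 1-like, -0.97 in ATP sulfurylase 2-like, -0.29 in reductase-like 7 BraA03g008340.3C and -0.77 in sulfite reductase BraA03g034380.3C. Transporters 2.1 and 3.4 have 1 row each, so their counts are the same in both fits, and their log2 fold changes hardly moved (-1.87 and 3.57) while the edgeR adjusted p was 0.0665 and 0.0736.

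Among the 22 genes with at least 2 rows, 1 had a row called higher and another called lower. This was cysteine synthase BraA01g021750.3C, whose gene value hardly differed. Its main assembled transcript had 13305, 12631 and 12430 counts in petiole, against 6158, 8034 and 7002 counts in leaf, at 0.45 ± 0.09 (SE, edgeR adjusted p of 0.0148), and 0.0513 was the adjusted p without petiole 3. The second assembled transcript had 3335, 2995 and 2507 counts in petiole, against 4138, 3803 and 3555 counts in leaf, at -0.79 ± 0.11 (SE, edgeR adjusted p of 0.00402). Both span nearly the same interval, A01 11944042 to 11947314 and 11944042 to 11947312.

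Sulfate transporter 1.2 shows the strongest dependence on which transcript is counted. The annotated transcript of BraA07g041120.3C has 11 exons (A07 27793706 to 27796715, plus strand) and carried the petiole counts given above. An assembled transcript of 1 exon covers the whole gene on the same strand (A07 27793596 to 27796784), exons and introns alike, and is not part of the gene value. It had 172, 197 and 212 counts in petiole, against 651, 1084 and 714 counts in leaf. It was lower in petiole, at -2.47 ± 0.28 (SE, edgeR adjusted p of 0.00209). Where all rows under the gene name are summed, the log2 fold change of the gene turns to -2.06 (edgeR adjusted p = 5.37e-05).

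**Figure D5:**
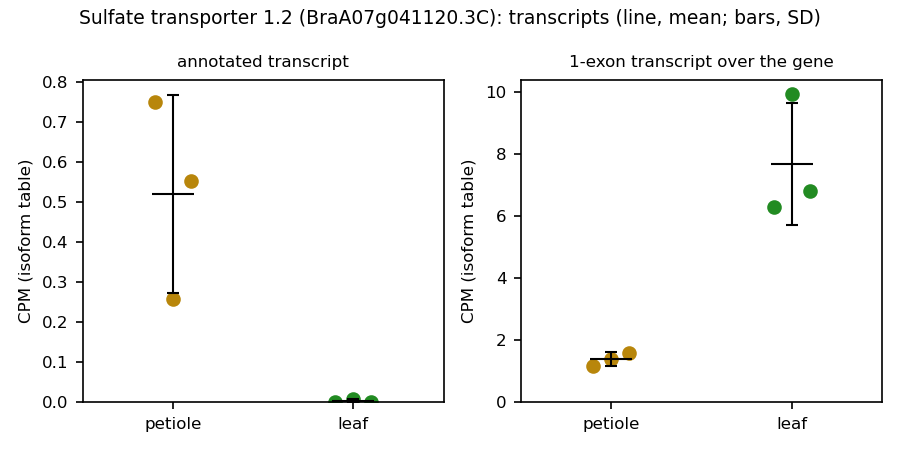
CPM, on the scale of the isoform table, of the 11-exon annotated transcript (left) and the 1-exon transcript over the same gene (right) of sulfate transporter 1.2 in 3 petiole and 3 leaf libraries (points; line, mean; bars, SD). The annotated transcript lies at 0.257 to 0.748 CPM in petiole and at most 0.00919 CPM in leaf, whereas the 1-exon transcript lies at 1.16 to 1.60 CPM in petiole and 6.30 to 9.96 CPM in leaf.

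The circular RNA table held 1 entry from these genes. This intron circRNA (A10 15601180 to 15601348) lies in reductase-like 7 BraA10g021970.3C and had 1 back-spliced read, in petiole 2, and 0 in the other 5 libraries.

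Of the 10 genes that did not pass the filter, 8 were listed at 0 in all 6 libraries. They are transporters 1.1 and 1.3, 2 of the 3.4 genes (BraA03g037280.3C and BraA03g051250.3C), an APS kinase 2-like gene (BraA08g022030.3C), an APS reductase 1-like gene (BraA02g027630.3C), a C1 synthase gene (BraA04g001180.3C) and a glutamate--cysteine ligase-like gene (BraA03g050740.3C). The last of these lies 5786 bases from BraA03g050750.3C, and the C1 gene 3189 bases from BraA04g001190.3C, both of which were called higher. The fourth 3.4 gene (BraA05g031130.3C) held 21 counts in petiole 2, 11 in leaf 2 and 0 elsewhere.

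Genes around the pathway were counted from lists of descriptions, in the same fit. Downstream of PAPS, 4 of 5 tested desulfo-glucosinolate sulfotransferases were higher in petiole and 0 lower, and of the 13 in the list 8 were at 0 in every petiole library and 7 in every leaf library. The list summed to 144 to 153 CPM in petiole and 6.28 to 8.94 CPM in leaf. Cytosolic sulfotransferase 17 (BraA06g014220.3C) had 61.5, 60.8 and 60.9 CPM in petiole, against 2.25, 1.55 and 2.25 CPM in leaf, at 4.92 ± 0.15 (SE, edgeR adjusted p of 7.2e-08). Phosphatases that remove PAP, the by-product of sulfotransferases, were higher in 3 of 5 genes and lower in 1. SAL1 phosphatase-like (BraA09g008060.3C) had 48.5, 49.8 and 51.4 CPM in petiole, against 9.13, 7.88 and 8.62 CPM in leaf, at 2.55 ± 0.08 (SE, edgeR adjusted p of 1.05e-07). The mitochondrial PAP-specific phosphatase (BraA09g025140.3C) was lower, at -0.68 ± 0.15 (SE, edgeR adjusted p of 0.00416).

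Downstream of cysteine, methionine synthases were higher in 4 of 5 genes and lower in 0, and summed to 4013 to 4194 CPM in petiole and 1353 to 1425 CPM in leaf. S-adenosylmethionine synthases, which use methionine, were higher in 6 of 7 and lower in 1, and summed to 3561 to 3623 CPM in petiole and 1135 to 1198 CPM in leaf. The largest called changes in these lists were a methionine synthase 2 (BraA03g031420.3C) at 2.08 ± 0.15 (SE, edgeR adjusted p of 8.79e-06) and an S-adenosylmethionine synthase 2 (BraA01g035280.3C) at 2.98 ± 0.34 (SE, edgeR adjusted p of 0.000115), with another S-adenosylmethionine synthase 2 (BraA05g000750.3C) lower at -0.60 ± 0.10 (SE, edgeR adjusted p of 0.000922). Of 2 tested cystathionine synthases and lyases, 1 was higher, cystathionine gamma-synthase 1 (BraA03g030640.3C), at 0.79 ± 0.06 (SE, edgeR adjusted p of 6.89e-06).

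On the glutathione side, 0 of 2 glutathione synthetases were called by edgeR (0 at an unadjusted p below 0.05, 0 by DESeq2, 1 by limma on log2(FPKM + 1)). Phytochelatin synthase (BraA06g043350.3C), which makes metal-binding peptides from glutathione, was higher, at 0.77 ± 0.05 (SE, edgeR adjusted p of 2.85e-06). Of 16 tested genes of glutathione breakdown, 6 were higher and 5 lower, near the shares of all tested genes (31.4% and 31.0%). The largest called rise and the largest called fall were both gamma-glutamyltranspeptidase 3-like genes, BraA01g008390.3C at 0.83 ± 0.12 (SE, edgeR adjusted p of 0.000568) and BraA03g054990.3C at -4.12 ± 0.42 (SE, edgeR adjusted p of 6.24e-05). BraA03g054990.3C had 0.721, 0.786 and 2.15 CPM in petiole, against 18.7, 22.8 and 21.6 CPM in leaf, and without petiole 3, the highest of the petiole libraries, its log2 fold change is -4.80.

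Sulfite oxidase, which returns sulfite to sulfate, was lower in 2 of 2 genes on counts, with BraA06g011450.3C at -0.56 ± 0.11 (SE, edgeR adjusted p of 0.00302). Limma on log2(FPKM + 1) called 1 of the 2, and their directions on that scale are not given here. Desulfhydrases and cyanoalanine synthases were higher in 2 of 4 and lower in 1, with a chloroplastic L-cysteine desulfhydrase (BraA06g033500.3C) at 1.003 ± 0.11 (SE, edgeR adjusted p of 9.2e-05) and D-cysteine desulfhydrase 2 (BraA06g038470.3C) at -0.78 ± 0.20 (SE, edgeR adjusted p of 0.0106). Of the regulators, 1 of 2 tested EIN3-like 3 genes was lower (BraA07g037760.3C, -0.37 ± 0.13 (SE, edgeR adjusted p of 0.0388)). DESeq2 and limma on log2(FPKM + 1) called 0 of the 2, and the edgeR call was lost without any 1 library other than petiole 2 (adjusted p 0.0592 to 0.112). The Arabidopsis relative of these genes, SLIM1, controls the response to sulfur shortage. Of 4 tested low-sulfur response genes, 2 were higher and 1 lower. SULFUR DEFICIENCY-INDUCED 1-like (BraA02g039880.3C) had 5.69, 9.40 and 8.17 CPM in petiole, against 1.12, 0.452 and 0.540 CPM in leaf, at 3.46 ± 0.40 (SE, edgeR adjusted p of 0.000128). The 2-like gene (BraA08g034670.3C) had 0.625, 0.673 and 0.641 CPM in petiole, against 2.42, 1.79 and 3.09 CPM in leaf, at -1.91 ± 0.36 (SE, edgeR adjusted p of 0.00197). In Arabidopsis both proteins lower glucosinolate synthesis when sulfur is short.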

How the data were processed

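Total RNA of 3 petiole and 3 leaf libraries was depleted of ribosomal RNA and made into strand-specific libraries, per the labels' protocols. HISAT2, StringTie and TopHat are named, without versions or roles, in the submitters' processing notes. No source used here gives the genome build, the annotation or the circRNA caller, and coordinates are copied from the files. Per the file headers, the authors deposited estimated counts and FPKM values per assembled transcript, and back-spliced read counts per circRNA. The deposited estimated counts are whole numbers, and equal FPKM times length up to a factor per library (to within 1% for 100% of isoforms with 1000 or more counts). Deposited FPKM values of 0.0001 mark counts of 0 and were set to 0.

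A gene value is the sum of estimated counts over rows with class code =, j or c. The 27984 of 45517 genes that averaged 10 or more counts across the 6 libraries were tested for petiole minus leaf with edgeR 4.0.16 in R 4.3.3, using TMM, the quasi-likelihood test and no replicate term. P-values were adjusted over all tested genes by Benjamini-Hochberg, with calls below 0.05. Isoforms (52982 of 72949) were tested likewise. Standard errors are the absolute log2 fold change over the square root of F. CPM are TMM-normalized, and CPM per kb divide each row's counts by its length first. The fitting scripts were tested on simulated counts. Alternatives were DESeq2 1.42.0, limma 3.58.1 on log2(FPKM + 1) and log2(FPKM + 0.1), other normalizations, filters and row sums, a replicate block, and each library left out.

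The genes, lists and roles were chosen with earlier results of these data known, so counts over them are descriptions. Named in each role were the 4 largest called rises and falls, the 2 most abundant genes, every gene of a role with at most 4, transporter 1.2 and the host of a circRNA, and from each other list 1 rise and 1 fall. Genes named beyond this were chosen after their values were seen. The gene names are the files' descriptions. The reference table at hand (assembly CAAS_Brap_v3.01) matched none of the gene IDs and was not used, and sequences were not used here.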

Additional observations from a re-analysis of the deposited data

How the results depend on the processing

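The count of genes higher in petiole (25) lay between 19 and 34 in every alternative run, and that of genes lower (13) fell to 4 with limma on log2(FPKM + 1), to 4 on log2(FPKM + 0.1) and to 7 with rows of class = only. Over all tested genes, limma called 16497 higher and 4257 lower on log2(FPKM + 1), and 16560 and 4269 on log2(FPKM + 0.1). Rows of class = only gave 5065 higher and 4888 lower of 25854 tested genes. With each library left out in turn the counts ranged from 25 to 26 and from 11 to 14. Isoforms called higher (26) numbered 42 on log2(FPKM + 1) and 41 on log2(FPKM + 0.1), and those called lower (12) numbered 2 on both. Left-out libraries gave 16 to 28 higher and 6 to 11 lower isoforms. The median log2 difference of all tested genes was 0.48 on log2(FPKM + 1) and 0.72 on log2(FPKM + 0.1), against 0.01 in the main fit on counts. The cause of the shifts in the other runs was not tested.

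Deviations of same-numbered petiole and leaf libraries correlated at -0.002, 0.006 and -0.001, with -0.014 to 0.015 for the other pairs. Such small correlations over all tested genes cannot show whether same-numbered libraries share a plant, so pairing is unknown. With a replicate block, 25 genes were higher and 11 lower, and 14 isoforms were higher and 8 lower. The calls of transporter 2.1 (BraA02g003380.3C, adjusted p = 0.0974) and ATP sulfurylase 2-like (BraA08g028020.3C, adjusted p = 0.103) were lost.

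Of the comparisons of single genes with an alternative, 723 kept direction and call, 27 lost the call, 15 gained it and 32 turned direction. Of those 32, 24 are 12 genes on the FPKM scales, where the log2 difference with pseudocounts 1 and 0.1 was 0.0537 and 0.0589 in BraA01g043410.3C, 0.0383 and 0.0428 in BraA03g008340.3C, 0.43 and 0.44 in BraA03g012800.3C, 0.14 and 0.15 in BraA03g031470.3C, 0.42 and 0.44 in BraA03g034380.3C, 0.62 and 0.67 in BraA05g003800.3C, 0.30 and 0.33 in BraA05g042120.3C, 0.0003 and 0.0002 in BraA07g014340.3C, 0.54 and 0.62 in BraA08g008010.3C, 0.51 and 0.52 in BraA08g028020.3C, 0.99 and 1.05 in BraA09g040030.3C and 0.42 and 0.43 in BraA09g050980.3C. With rows of class = only, BraA01g021750.3C turned to -0.89, BraA08g010980.3C turned to -0.79, BraA09g040030.3C turned to 1.503 and BraA10g021970.3C turned to -0.39. Transporter 3.3 BraA09g040030.3C also turned with upper-quartile normalization (0.0549) and without petiole 3, transporter 3.5 BraA02g008310.3C without petiole 1, and transporter 1.2 with every row under the gene name (-2.06). With each library left out in turn, the log2 fold change ranged from -0.0383 to 0.0311 in the transporter 3.3 gene and from -0.0224 to 0.24 in the transporter 3.5 gene. Depth limits the genes under about 2 CPM, transporters 1.2, 2.1 and 2.1-like and synthases D1 and D2 among them, whose values rest on few counts.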
